A study of Mus musculus with 4 samples.

Results

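The genes described here are p53, its regulators and its target genes, together with the BCL2 family that controls mitochondrial cell death. They are 36 gene symbols, chosen by name, of the 23366 symbols in the deposited count files, and all 36 were found. The RNA was polyadenylated RNA of R1, an embryonic stem cell line from mice of 129X1 x 129S1 background, kept on gelatin with serum and LIF. The 2 knockdown libraries came from cells given a hairpin RNA against the long noncoding RNA Cyrano, and the 2 control libraries from cells given a non-targeting hairpin. Both groups received the hairpin in the same vector (pSicoR-Ef1a-mCh-Puro) by lipid transfection and were enriched at the first passage, on the day after transfection, with puromycin or by flow cytometry. Each group is therefore a transfected pool of 1 cell line, and both carry the vector and its selection. The sources used here do not say which enrichment, RNA kit or hairpin construct each library had. The series' title links Cyrano, microRNA activity and self-renewal, and the comparison of these genes asks whether their transcripts differed once Cyrano was lowered.

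As background, p53 is a transcription factor that is held low by MDM2, a ubiquitin ligase, and by its relative MDM4, and is released when DNA is damaged. It binds DNA at paired decamers and raises genes that halt the cell cycle, repair DNA or promote death. Embryonic stem cells are known for abundant p53, a short G1 phase with little p21, and mitochondria that are close to the threshold for apoptosis. The BCL2 family sets that threshold: survival proteins such as BCL2, BCL-XL and MCL1 restrain the pore-forming effectors BAX and BAK, and BH3-only proteins release them.

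Sequences are shown for what links these genes to p53 and to the microRNA that Cyrano carries a site for. The p53 element searched was a pair of half-sites of 10 bases, each the p53 consensus decamer with its inner C and G kept and at most 1 mismatch, with a spacer of up to 13 bases; the pair was read on the gene's strand, and the decamer is its own reverse complement. RefSeq promoter windows of GRCm38.p6, from 250 bases before to 50 bases after a listed start, were found for 27 of the 36 genes, and 3 of the 27 (11.1%) held such an element. Over all genes with a window the count was 835 of 27025 (3.09%). The elements are in capitals, read on the strand of the gene, within 5 flanking bases on each side:
Ccng1, chr11:40755457-40755486, minus strand: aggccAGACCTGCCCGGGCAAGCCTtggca
Cdkn1a, chr17:29090923-29090952, plus strand: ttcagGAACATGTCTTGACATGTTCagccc
Gtse1, chr15:85859940-85859969, plus strand: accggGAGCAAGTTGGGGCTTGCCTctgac
A match is a description of the letters, and windows without one say nothing of p53 binding, much of which lies outside such windows.

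Cyrano is known for a conserved, near-complementary site for miR-7, so the members were also searched for miR-7 sites. The mature microRNAs, from RefSeq, share 1 seed (bases 2 to 8, in capitals):
mmu-miR-7a-5p: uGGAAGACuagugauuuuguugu
mmu-miR-7b-5p: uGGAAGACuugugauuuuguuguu
A site was GTCTTCC or TCTTCCA in the longest 3′ UTR of GENCODE M21 (GRCm38), on the transcript's strand. Sites were found in 13 of 36 members (36.1%) and in 3326 of 12584 tested genes with a 3′ UTR (26.4%), with a median 3′ UTR of 1381 bases in members and 1192 bases in tested genes. Bcl2 and Bcl2l11 were the 2 members with the longer match of 8 bases, and p53 itself had a shorter one near the start of its 3′ UTR; sites are in capitals:
Bcl2, chr1:106542706-106542735, minus strand: aagaaagcctgGTCTTCCAtggactggaga
Bcl2l11, chr2:128159576-128159605, plus strand: gtaaagcacttGTCTTCCAcaagatgtctg
Trp53, chr11:69591327-69591355, plus strand: tccccttttctGTCTTCCtatagctacct

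Reads counted in genes were 22321102 and 20761783 in the knockdown libraries and 16854403 and 19138196 in the control libraries. Cyrano, listed as 1700020I14Rik, had 89 and 68 reads in the knockdown libraries against 407 and 286 in the controls. It fell to 3.57 ± 0.585 CPM (counts scaled to library size) in knockdown libraries, against 19.95 ± 6.80 in controls (SD, n = 2 each; log2 fold change -2.48 ± 0.30 SE, edgeR adjusted p = 0.00702). Without control 1 its log2 fold change was -2.08 (edgeR adjusted p = 0.120), without control 2 it was -2.79 (0.0567), and limma-voom gave an adjusted p of 0.0512. The share of counts taken by the ribosomal RNA precursor Rn45s was 12.3% and 11.03% in knockdown libraries and 17.5% and 15.9% in controls. Stem cell markers summed to 4950 and 4756 CPM after knockdown and to 5208 and 5345 CPM in controls, so transcripts of the labelled cell type were present in every library. Of these 10 markers, 1 was higher and 3 were lower at an unadjusted edgeR p under 0.05, and the groups were apart in 8, 3 of them higher and 5 lower. Over all genes tested, 6.18% were higher and 5.43% lower at that p, and the groups were apart in 43.5%. Of 10 fibroblast markers, Col3a1, Dcn, Lum and Postn had no read in any library. The others were Col1a1, Col1a2, Thy1, Twist2, Fbln5 and Pdgfrb, of which 3 had enough reads to be tested. The 10 summed to 53.3 and 26.2 CPM after knockdown and to 44.6 and 31.8 CPM in controls. The 8 primitive endoderm markers summed to 166 and 203 CPM after knockdown and to 109 and 124 CPM in controls. At an unadjusted edgeR p under 0.05, 5 of the 8 were higher (6.18% of all genes) and 1 was lower (5.43% of all genes). The groups were apart in 7 of the 8, 6 of them higher and 1 lower (43.5% of all genes in either direction). Neuroectoderm markers summed to 188 and 197 CPM after knockdown and to 209 and 239 CPM in controls, and trophectoderm markers to 47.4 and 58.3 CPM after knockdown and to 45.1 and 50.4 CPM in controls. Of 5 neuroectoderm markers tested, 1 was higher (6.18% of all genes) and 2 were lower (5.43%) at that p, and the groups were apart in 4 (43.5%). Of 6 trophectoderm markers tested, 0 were higher or lower at that p, and the groups were apart in 1. The parts of Rn45s and of these markers in the values below were not tested, and in bulk RNA fewer cells of a type and less RNA per cell cannot be told apart.

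None of the p53 and BCL2 genes passed the test after Cyrano knockdown. The gene with the lowest p was Mdm2, at 1.45-fold the control level. Transcripts of Trp53, Cdkn1a (the gene of p21) and Bax were at 1.03-fold to 1.19-fold, and that of Mcl1 was at 1.00-fold. These are RNA levels, and protein was not measured in these libraries. Of the 36 genes, 35 had enough reads to be tested, the exception being the death receptor gene Fas. By edgeR's quasi-likelihood test 0 of 35 had an adjusted p under 0.05, where 0.0833% of the 13199 genes tested did. DESeq2, which called 1.34% of 9895 genes and gave no adjusted p to Bcl2 and Ddb2, called 0 of the others, and limma-voom called 0 of 35. At an unadjusted p under 0.05, Mdm2 and Ei24 were higher in the knockdown (6.18% of all genes tested were) and Btg2 was lower (5.43% of all). These 3 of 35 members compare with 11.6% of all genes in either direction. The log2 fold changes of the 35 ran from -0.48 to 0.98 with a median of 0.11, against a median of -0.0016 over all genes tested; 22 were above 0 and 13 below. Both knockdown libraries lay on one side of both controls in 15 of the 35 genes, 8 higher (22.3% of all genes) and 7 lower (21.3% of all genes), near the 43.5% of all genes in either direction. The 36 genes summed to 3107 and 3436 CPM in the knockdown and to 2894 and 3245 CPM in controls, so the groups' totals overlapped. In 18 of the 35 genes the libraries numbered 1 were below those numbered 2 in both groups (30.4% of all genes), and in 5 they were above (28.4% of all genes).

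**Figure D1:**
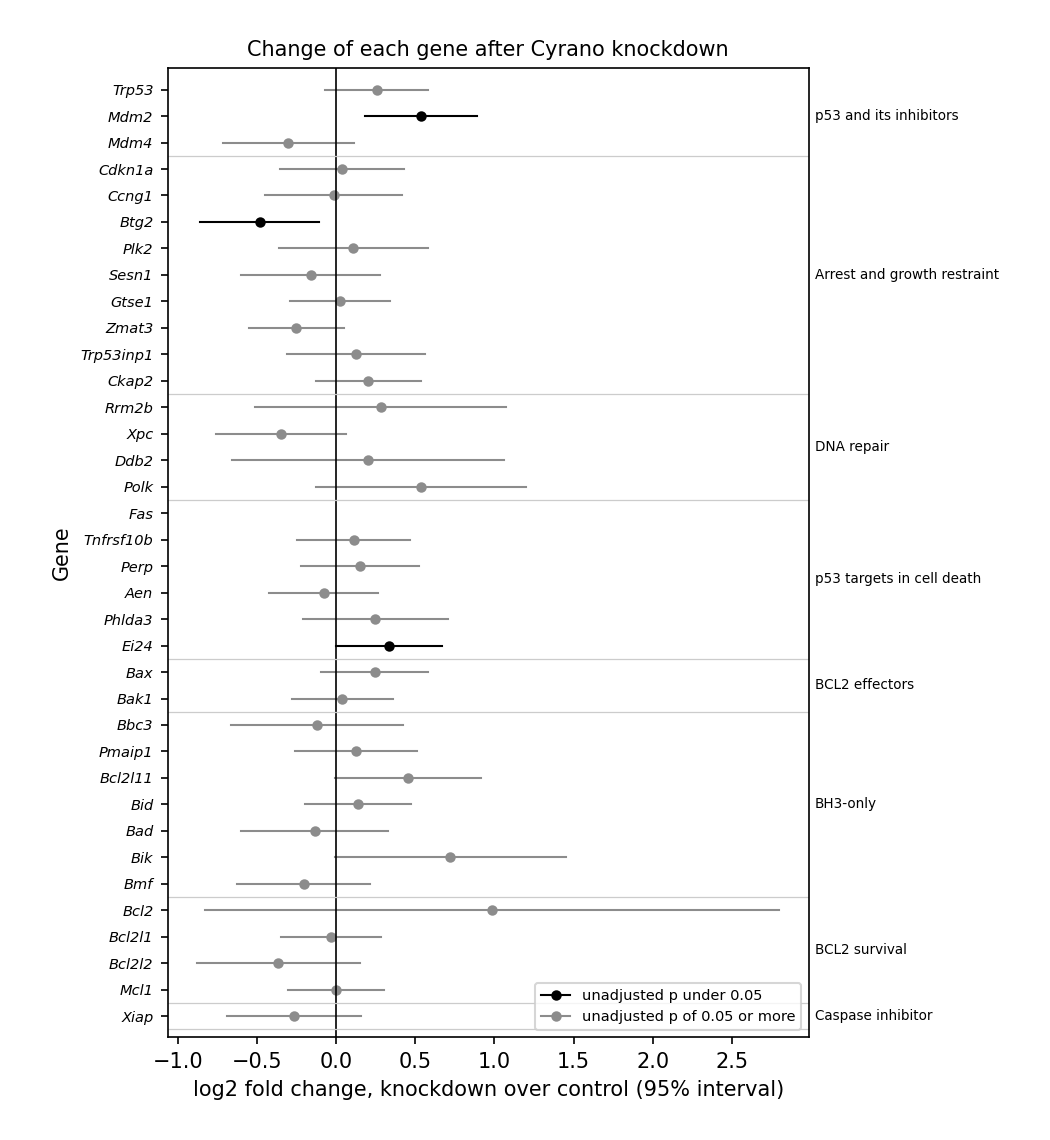
Log2 fold change of each gene, knockdown over control (horizontal axis), with its 95% interval from edgeR, ordered by role. The intervals of Mdm2, Ei24 and Btg2 leave out 0 and are drawn in black; Bcl2 has the widest interval, and Fas was not tested.

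p53 and its inhibitors were 3 transcripts whose groups did not overlap, as in 43.5% of all genes tested, and none had an adjusted p under 0.05. Trp53, the gene of p53, had 509 and 491 CPM in knockdown libraries and 373 and 464 CPM in controls. Both knockdown values were above both controls, with the low value of control 1 setting most of the distance. The log2 fold change was 0.26 ± 0.15 (SE; 95% interval -0.07 to 0.58; edgeR adjusted p = 0.538), and without control 1 it was 0.11. Mdm2, which is both an inhibitor and a target of p53, had 140.3 and 189 CPM in the knockdown and 112 and 115 CPM in controls. Knockdown 2 was well above the other 3 libraries, and knockdown 1 was nearer the controls. Its log2 fold change was 0.54 ± 0.16 (SE; 95% interval 0.18 to 0.89), with an adjusted p of 0.224 by edgeR. Without knockdown 1 the value was 0.73 and without knockdown 2 it was 0.31. Each of these fits leaves 1 knockdown library, so no p is given for them. Over the alternatives that kept every library, the adjusted p of Mdm2 ran from 0.00372 by edgeR to 0.261 by limma-voom. Mdm4, whose product binds and restrains p53 without degrading it, had 25.6 and 31.8 CPM in the knockdown and 38.3 and 32.5 CPM in controls. It was at -0.30 ± 0.19 on the log2 scale (edgeR adjusted p = 0.574), opposite in sign to that of Mdm2. Reads of Mdm2 per read of Trp53 were 0.276 and 0.386 in the knockdown libraries and 0.300 and 0.248 in the controls, and these ranges overlapped.

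**Figure D2:**
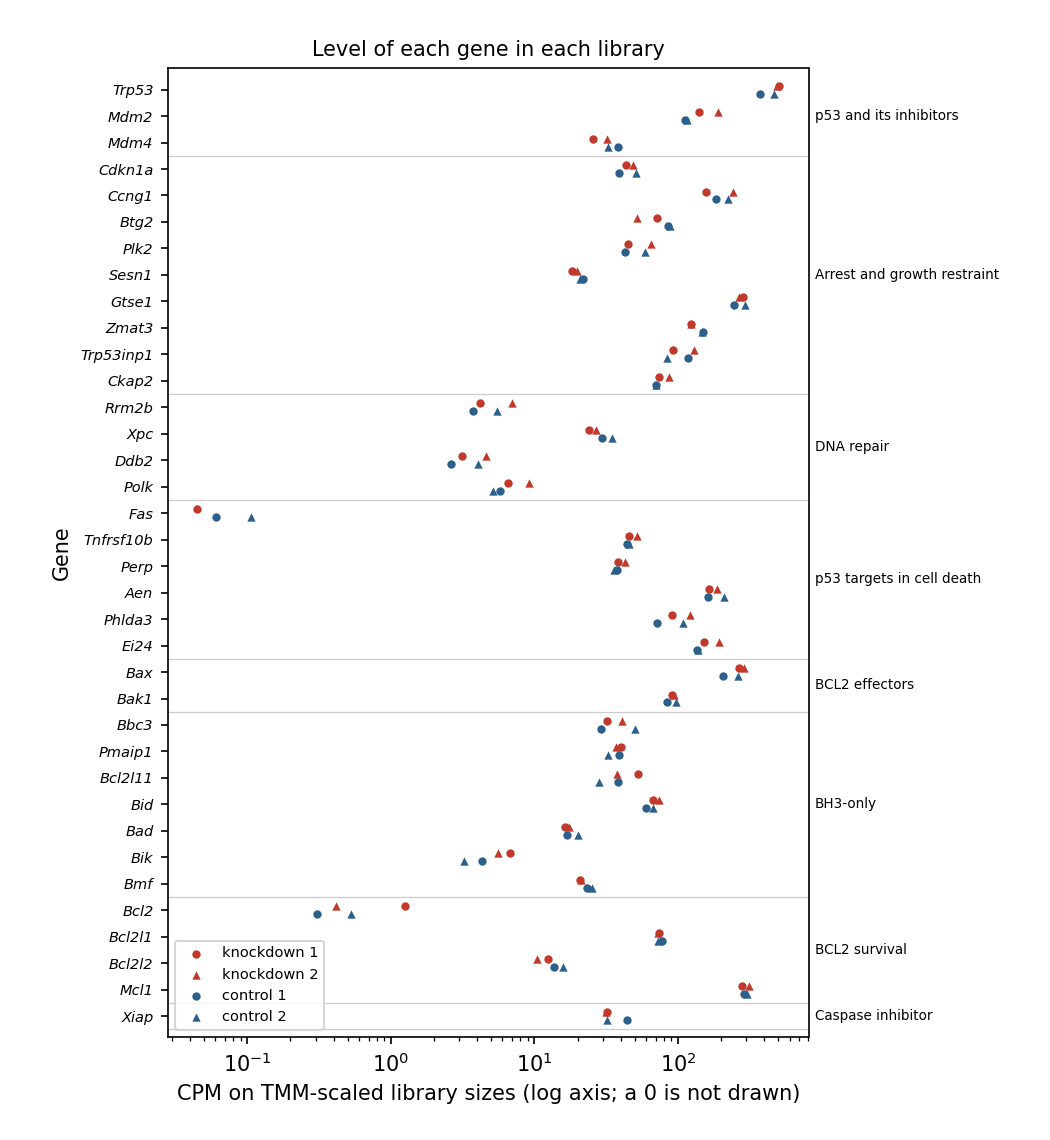
Level of each gene in each library in CPM on TMM-scaled library sizes (horizontal log axis), with knockdown libraries in red and controls in blue, replicate 1 as circles and replicate 2 as triangles. Mdm2 stands at 140.3 and 189 CPM in the knockdown and 112 and 115 CPM in controls, while the points of Cdkn1a and Mcl1 from the 2 groups interleave; a 0 is not drawn.

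Among 9 genes listed together under arrest and growth restraint, 5 log2 fold changes were above 0 and 4 below, with a median of 0.02. The heading is loose, since the list also holds Gtse1 and the spindle protein gene Ckap2, whose products are described below. Cdkn1a encodes p21, the cyclin-dependent kinase inhibitor that carries out p53-driven G1 arrest, and holds the element printed above. It had 43.7 and 49.0 CPM in the knockdown and 39.0 and 51.2 CPM in controls, so the knockdown values lay between the control values. It was at 0.04 ± 0.18 (log2 fold change and SE; edgeR adjusted p = 0.966), and the 95% interval of -0.36 to 0.43 sets how large a difference these libraries leave room for. Ccng1 and Gtse1 hold the other elements. Ccng1, which encodes cyclin G1, a partner of a phosphatase that acts on MDM2, had 158 and 243 CPM in the knockdown and 183 and 222 CPM in controls. The spread within each group exceeded the distance between the group means (log2 fold change -0.02 ± 0.20). Gtse1, which encodes a microtubule-associated protein that can export p53 from the nucleus, had a log2 fold change of 0.02 ± 0.15.

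Btg2 was the gene of that list with the lowest p. It encodes an antiproliferative protein that recruits the mRNA deadenylase complex, and had 71.8 and 51.6 CPM in the knockdown and 84.9 and 87.5 CPM in controls. The controls were close together and knockdown 2 was the lowest library. The log2 fold change was -0.48 ± 0.17 (SE; 95% interval -0.86 to -0.11), with an adjusted p of 0.314 by edgeR. Without knockdown 2 it was -0.26, and without knockdown 1 it was -0.75, each from a fit with 1 knockdown library. Over the alternatives that kept every library, the adjusted p of Btg2 ran from 0.0128 to 0.319, both by edgeR. Zmat3, a zinc finger RNA-binding protein gene, had 124 CPM in each knockdown library and 149 and 146 CPM in controls. Replicates lay close together here, and the log2 fold change was -0.25 ± 0.14 (edgeR adjusted p = 0.505), or -0.12 with an offset for the length and GC content of transcripts. Sesn1, a sestrin that restrains mTORC1 signalling, also had both knockdown values, 18.2 and 19.7 CPM, below the controls at 21.7 and 20.8 CPM (log2 fold change -0.16 ± 0.20). Ckap2, a spindle protein gene, had the reverse arrangement, with 74.1 and 87.3 CPM in the knockdown and 70.2 and 70.0 CPM in controls (log2 fold change 0.20 ± 0.15, or 0.07 with the offset). The groups overlapped for Plk2, a Polo-like kinase gene, at 0.11 ± 0.22, and for the stress protein gene Trp53inp1, at 0.13 ± 0.20.

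The 4 genes of DNA repair and nucleotide supply were expressed at low to moderate levels, and 3 of their log2 fold changes were above 0. Xpc, which encodes the lesion sensor of global nucleotide excision repair, had 23.9 and 26.7 CPM in the knockdown and 29.6 and 34.7 CPM in controls. All knockdown values were below all control values, at -0.35 ± 0.19 on the log2 scale (edgeR adjusted p = 0.503). Polk, which encodes a translesion DNA polymerase, had 6.58 and 9.24 CPM in the knockdown and 5.78 and 5.14 CPM in controls. It lay the other way, at 0.54 ± 0.31, with a 95% interval of -0.13 to 1.20. Rrm2b, a p53-regulated subunit of ribonucleotide reductase, and Ddb2, which recognises ultraviolet lesions, had means under 6 CPM and groups that overlapped. Their log2 fold changes were 0.28 ± 0.37 for Rrm2b and 0.20 ± 0.40 for Ddb2.

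Of 9 p53 targets that act in cell death, 8 were tested and 6 had log2 fold changes above 0, with a median of 0.14. Ei24, which encodes a membrane protein of the endoplasmic reticulum, had 152 and 193 CPM in the knockdown and 135 and 138 CPM in controls. As for Mdm2, knockdown 2 was the highest library and the controls were close together. The distance was 0.34 ± 0.15 on the log2 scale (SE; edgeR adjusted p = 0.428), and without knockdown 2 it was 0.15. With every library kept, the unadjusted p of Ei24 was 0.0493 by edgeR, 0.0617 by DESeq2 and 0.0580 by limma-voom. Perp, which encodes a membrane protein of cell junctions, had 38.5 and 42.9 CPM in the knockdown and 37.5 and 35.8 CPM in controls (log2 fold change 0.15 ± 0.17, or 0.05 with the length and GC offset). Phlda3, whose product competes with the kinase AKT for membrane lipids, had 91.5 and 122 CPM in the knockdown and 71.2 and 109 CPM in controls (0.25 ± 0.21). Of the death receptors, Tnfrsf10b, which binds the ligand TRAIL, was at 45.3 and 51.8 CPM in the knockdown and 44.5 and 45.3 CPM in controls. Its log2 fold change was 0.11 ± 0.17. Fas had 1 and 0 reads in the knockdown and 1 and 2 reads in controls, and no fold is given at such counts; a count of 0 in knockdown 2 allows up to 0.144 CPM, counting error only. Aen, an apoptosis-enhancing nuclease gene, had 166 and 188 CPM in the knockdown and 163 and 210.4 CPM in controls (-0.08 ± 0.16). The remaining members of this group also belong to the BCL2 family.

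The BCL2 effectors were both expressed. Bax had 266 and 288 CPM in knockdown libraries and 205 and 263 CPM in controls. The groups did not overlap, although control 2 was close to knockdown 1. The distance was 0.24 ± 0.16 on the log2 scale (SE; 95% interval -0.09 to 0.58; edgeR adjusted p = 0.576). It was 0.07 without control 1 and 0.15 with an offset for the length and GC content of transcripts. Bak1 had 90.2 and 94.6 CPM in the knockdown and 83.4 and 96.3 CPM in controls. The knockdown values lay inside the range of the controls (log2 fold change 0.04 ± 0.15).

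Among the 7 BH3-only genes, 4 log2 fold changes were above 0 and the median was 0.12. Bcl2l11, which encodes BIM, an activator of BAX and BAK, had 52.9 and 37.9 CPM in the knockdown and 38.2 and 28.2 CPM in controls. Knockdown 2 was just under control 1, so the groups overlapped. The log2 fold change was 0.45 ± 0.21 (SE; 95% interval -0.01 to 0.91), with an adjusted p of 0.440 by edgeR. Without knockdown 1 it was 0.18, without control 2 it was 0.25, and without knockdown 2 it was 0.68. Bik, which acts at the endoplasmic reticulum, had 6.81 and 5.62 CPM in the knockdown and 4.32 and 3.23 CPM in controls. Both knockdown values were above both controls, at 0.72 ± 0.34 on the log2 scale (edgeR adjusted p = 0.433). Bmf, a BH3-only gene linked to the cytoskeleton, had 20.9 and 21.1 CPM in the knockdown and 23.3 and 25.1 CPM in controls (-0.20 ± 0.19, or -0.07 with the length and GC offset). The p53-regulated pair of this class lay on either side of 0. Bbc3, which encodes PUMA, had 32.2 and 40.9 CPM in the knockdown and 29.0 and 50.3 CPM in controls (log2 fold change -0.12 ± 0.25), with the widest spread in the controls. Pmaip1, which encodes NOXA, a selective partner of MCL1, had 40.0 and 37.3 CPM in the knockdown and 38.6 and 32.4 CPM in controls (0.12 ± 0.18). The groups also overlapped for Bid, which is cleaved by caspase-8 to reach mitochondria, at 0.14 ± 0.15, and for Bad, which is held inactive by phosphorylation, at -0.14 ± 0.22. Exons of Bak1, Bid, Bad and Ddb2 overlap those of Ggnbp1, Bcl2l13, Gpr137 and Acp2 on the other strand in GENCODE M21. The sources used here do not say whether reads were counted by strand. Without strand, reads in the shared stretches of these pairs, 524 to 652 bases each, cannot be told apart. Other members overlap genes that were not found in the count files. These are Bax and Bcl2l2 on the same strand, and Bcl2, Cdkn1a, Ei24 and Rrm2b on the other strand. Whether reads of those genes entered the members' counts was not tested.

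The 4 survival genes had 2 log2 fold changes above 0 and 2 below. Mcl1, which encodes a short-lived survival protein, had 281 and 312 CPM in the knockdown and 289 and 303 CPM in controls. Its means were 296 ± 22.01 CPM in the knockdown and 296 ± 9.38 CPM in controls (SD, n = 2 each), and the 95% interval of the log2 fold change was -0.30 to 0.30. The sign of a value so near 0 turned in some of the alternative fits. Bcl2l1, the gene of BCL-XL, had 73.9 and 72.4 CPM in the knockdown and 77.0 and 72.6 CPM in controls. Its log2 fold change of -0.03 ± 0.15 was the next closest to 0 in this class, and became 0.02 with library size alone. Bcl2l2, the gene of BCL-W, had 12.4 and 10.5 CPM in the knockdown and 13.7 and 15.7 CPM in controls. Its groups did not overlap (log2 fold change -0.36 ± 0.24; edgeR adjusted p = 0.579). Bcl2 itself had few reads, with 28 and 9 reads in the knockdown and 5 and 10 in controls. These are 1.25 and 0.418 CPM in the knockdown and 0.304 and 0.530 CPM in controls, and only knockdown 1 stood apart. The log2 fold change of 0.98 ± 0.84 was the largest of all members and the least certain (95% interval -0.83 to 2.80; edgeR adjusted p = 0.687); without knockdown 1 it was -0.014. Xiap, an inhibitor of caspases, had 32.1 and 31.6 CPM in the knockdown and 44.5 and 32.1 CPM in controls. Control 1 alone was high, and the log2 fold change was -0.27 ± 0.20, or -0.37 with the length and GC offset.

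**Figure D3:**
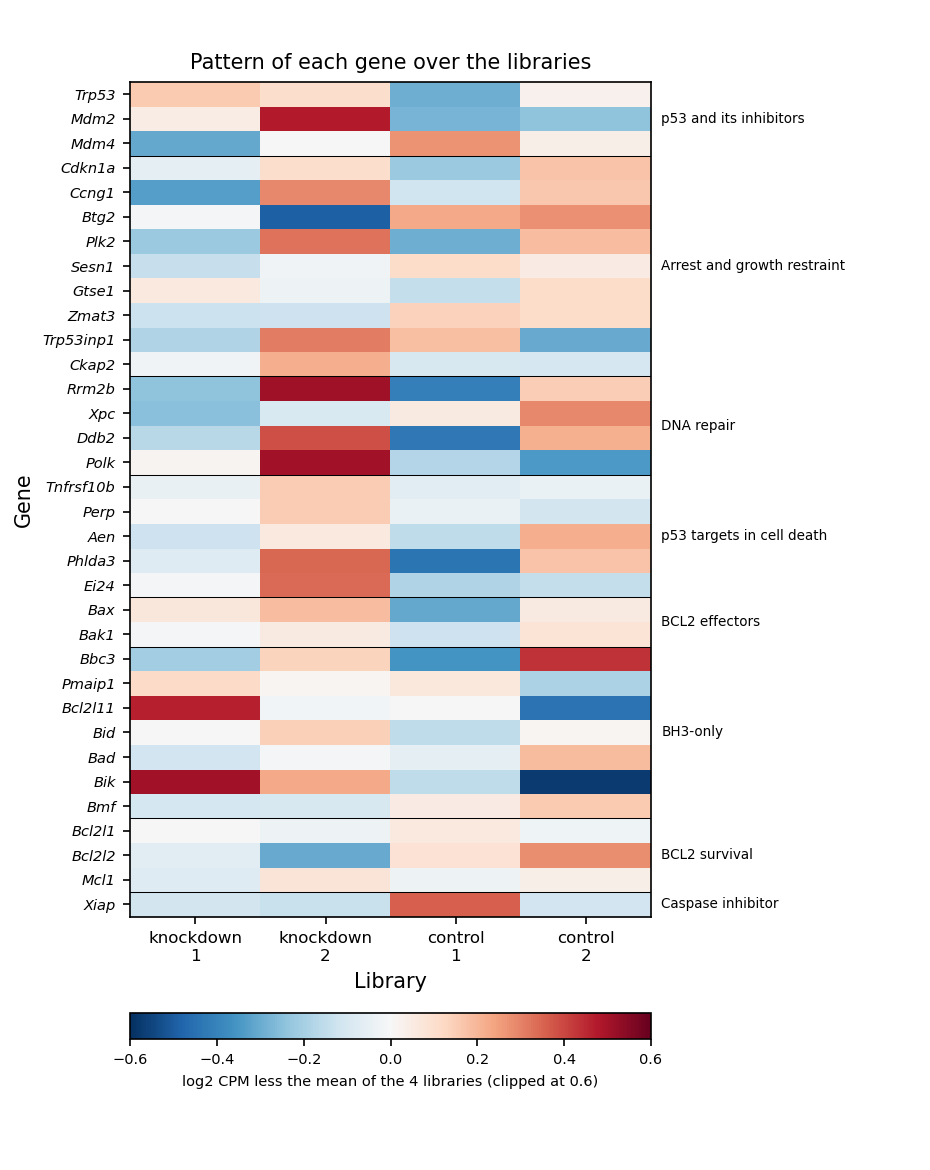
Log2 CPM of each gene in each library, less the gene's mean over the 4 libraries (colour, held within 0.6 of 0); Fas and Bcl2 are left out for their low counts. Within their rows, Mdm2 and Ei24 are reddest in knockdown 2, where Btg2 is bluest, and Bcl2l11 and Bik are reddest in knockdown 1.

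Levels can be set between genes only per length, here as CPM per kilobase of the longest coding transcript. On that scale Trp53 averaged 268 in the knockdown and 224 in controls, and Bax was close to it at 252 in the knockdown and 213 in controls. Mcl1 was the most abundant survival transcript, at 86.7 in the knockdown and 86.6 in controls. Bak1 followed at 38.7 in the knockdown and 37.6 in controls, Bid at 32.1 in the knockdown and 29.1 in controls, and Bcl2l1 at 28.5 in the knockdown and 29.1 in controls. Bcl2l2 was at 3.004 in the knockdown and 3.87 in controls, and Bcl2 at 0.116 in the knockdown and 0.0580 in controls. The order of survival transcripts was thus Mcl1, Bcl2l1, Bcl2l2 and Bcl2 in both groups. The effectors summed to 279.7 and 301 CPM per kilobase in knockdown libraries and to 221 and 279.5 in controls. Survival genes summed to 114 and 122 in the knockdown and to 118 and 121 in controls. The effector sum was 2.45 and 2.47 times the survival sum in the knockdown and 1.87 and 2.31 times in controls, with Bax and control 1 setting most of that distance. The smallest p that an exact permutation test can give with 2 libraries against 2 is 0.333, so no test of these ratios is given. BH3-only transcripts summed to 93.7 and 97.5 CPM per kilobase in the knockdown and to 84.4 and 96.9 in controls.

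The members were also set apart by their miR-7 sites, as a description without a test. The 13 with a site had log2 fold changes from -0.30 to 0.98 with a median of 0.12, and 4 of the 13 were below 0. The 22 tested members without a site ran from -0.48 to 0.72 with a median of 0.04, and 9 of the 22 were below 0. Over all tested genes with a site the median was -0.04. Bcl2 and Bcl2l11, with the longer matches printed above, had log2 fold changes of 0.98 ± 0.84 for Bcl2 and 0.45 ± 0.21 for Bcl2l11. Without knockdown 1, Bcl2 was at -0.014 and Bcl2l11 at 0.18.

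Further genes of the same pathways were counted in 5 lists, none of which held a gene with an edgeR adjusted p under 0.05 (0.0833% of all genes tested had one). Of all genes tested, 6.18% were higher and 5.43% lower at an unadjusted edgeR p under 0.05, and 11.6% in either direction. Of 28 upstream regulators and cofactors of p53 that were tested, 5 were higher and 2 lower at an unadjusted p under 0.05, and the median log2 fold change was 0.01. Among them, Cdkn2a, whose locus encodes the MDM2 inhibitor ARF and the kinase inhibitor p16, had 17.9 and 18.0 CPM in the knockdown and 6.69 and 13.8 CPM in controls. The groups did not overlap, and control 1 was the lowest (log2 fold change 0.80 ± 0.30; edgeR adjusted p = 0.345). Rpl5, a ribosomal protein gene whose product can bind MDM2, was at 0.33 ± 0.15, the MDM2-binding chaperone gene Daxx at 0.35 ± 0.15, and the acetyltransferase gene Crebbp at -0.36 ± 0.14. With the length and GC offset Rpl5 was at 0.16 and Crebbp at -0.11, and neither then had an unadjusted p under 0.05.

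Of 44 other reported p53 targets that were tested, 3 were higher (6.18% of all genes) and 6 lower (5.43% of all genes) at an unadjusted edgeR p under 0.05. Their median was 0.01. Steap3, a ferrireductase gene, had 31.1 and 29.2 CPM in the knockdown and 49.7 and 45.8 CPM in controls (log2 fold change -0.66 ± 0.17; edgeR adjusted p = 0.174). Apaf1, which encodes the scaffold of the apoptosome and is also on the caspase list, had 16.8 and 17.05 CPM in the knockdown and 28.2 and 23.4 CPM in controls (-0.60 ± 0.20; edgeR adjusted p = 0.280). Cyfip2 was at -0.62 ± 0.18 and Igfbp3, a binding protein of insulin-like growth factors, at 0.77 ± 0.25. Reported p53 targets thus lay on both sides of 0 among members and non-members alike.

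Of 16 other BCL2 family genes and mitochondrial partners, 2 were higher (6.18% of all genes) and 1 lower (5.43% of all genes) at an unadjusted edgeR p under 0.05. Their median was 0.03. Hrk, a BH3-only gene, was at -0.92 ± 0.34, the BCL2-interacting Bnip2 at 0.59 ± 0.19, and Vdac2, a channel of the outer mitochondrial membrane that binds BAK, at 0.34 ± 0.14. Of 27 caspases, apoptosome genes and inhibitors of apoptosis, 2 were higher (6.18% of all genes) and 3 lower (5.43% of all genes), with a median of -0.08. Endog, a mitochondrial nuclease gene, had 22.3 and 22.7 CPM in the knockdown and 12.96 and 13.3 CPM in controls (log2 fold change 0.78 ± 0.21; edgeR adjusted p = 0.183). Ripk1, a kinase gene of death receptor signalling, was at -0.56 ± 0.21. Birc7, a relative of Xiap, had 1 and 0 reads in the knockdown and 12 in each control (edgeR adjusted p = 0.204). Of 35 genes of the DNA damage response and repair, 2 were higher (6.18% of all genes) and 1 lower (5.43% of all genes), with a median of -0.08. Mdc1, a scaffold at DNA breaks, was at -0.58 ± 0.16, the histone gene H2afx at 0.52 ± 0.16 and the single-strand binding protein gene Rpa1 at 0.35 ± 0.14.

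**Figure D4:**
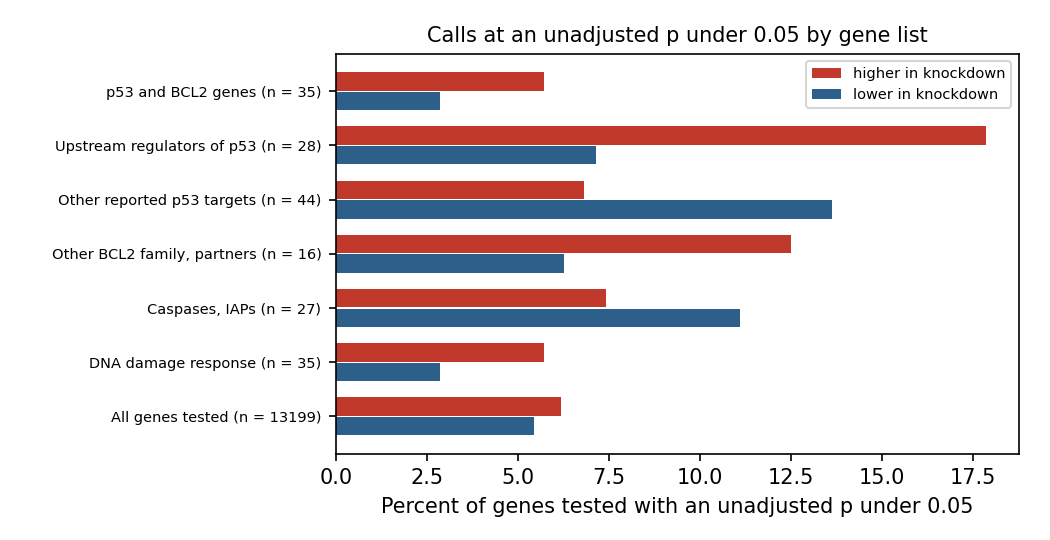
Percent of tested genes with an unadjusted edgeR p under 0.05 (horizontal axis) in each gene list and over all genes, for genes higher (red) and lower (blue) in the knockdown; n is the number tested. All genes stand at 6.18% higher and 5.43% lower, and the bars of the short lists rest on 1 to 6 genes each.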

How the data were processed

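Polyadenylated RNA of 2 knockdown and 2 control libraries was sequenced after a strand-specific dUTP preparation, per the labels' protocols. The deposited values are raw, whole-number counts of reads for each gene symbol. TopHat, HTSeq, SAMtools, bedtools and build mm9 were used per the submitters' processing notes, with versions, annotation and strand setting not given in the sources used here. The tallies that name no gene entered neither library sizes nor tests: reads outside genes were 6.39% to 7.61%, ambiguous reads 0.459% to 0.600% and reads without a unique alignment 26.1% to 32.8% of all tallied reads.

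The test was that of edgeR 4.0.16, run in R 4.3.3 (filterByExpr with a minimum count of 10, TMM factors of 0.976 to 1.04, glmQLFit with robust estimation, glmQLFTest, two-sided, group as the only term), with p-values adjusted by the Benjamini-Hochberg method over 13199 genes and a threshold of 0.05. Each standard error is the size of the log2 fold change divided by the root of its F statistic, and intervals are at 95%. CPM use TMM-scaled library sizes. DESeq2 1.42.0, limma-voom (limma 3.58.1), other factors, no filter, a length and GC offset (splines with 5 df), a replicate block and leaving out each library were alternatives. The test was first tested on simulated data with known changes.

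The members and gene lists were chosen with earlier results of these data known. Named with values of every library were Trp53, Mdm2, Cdkn1a, Bcl2, Mcl1, Bax and the 12 members with the lowest p; other members could be named, with values of every library for some of them, and in each further list up to 4 genes with the lowest p under 0.05. Of 36 listed damage response genes 35 were found. Replicates were compared first: chi-square per degree of freedom was 20.5 for the knockdown pair and 25.4 for the control pair, beyond counting noise alone. No pair therefore looked like 1 library deposited more than once, and each counted as 1 replicate, which does not show that the cultures were separate. The submitters call them biological replicates; nothing says how cultures were separated, and the spread that p-values measure is that of these libraries, which may be technical. GENCODE M21 and RefSeq tables (GRCm38.p6) gave lengths and sequences by symbol; 22976 of 23366 symbols (98.3%) matched. The build differs from that of the files, and printed coordinates are those of GRCm38.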

Additional observations from a re-analysis of the deposited data

Results flagged for a closer look

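Reads ambiguous between genes, a tally that no comparison used, made up 0.584% of tallied reads on average in the knockdown libraries and 0.486% in the controls. The tally was picked out because the knockdown mean was above that of the controls, so no test of it is given. The smallest p that a two-sided exact permutation test can give with 2 libraries against 2 is 0.333.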

How the results depend on the processing

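No member had an adjusted p under 0.05 with edgeR under RLE factors, library size only or the length and GC offset, or with DESeq2 or limma-voom. Of the 35 tested members, 20 kept their direction in all 12 alternatives. With 2 libraries a group the 95% intervals are wide, and read depth further limits Bcl2, Fas, Ddb2, Rrm2b, Bik and Polk.

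Genes called, 11 in the test as reported, were 6 with RLE factors, 50 with library size only, 332 with no filter, 133 with DESeq2, 3 with limma-voom, 7 under the offset for length and GC, and 0 to 191 when 1 library was left out. Members with an unadjusted p under 0.05, 3 as reported, were 5 with library size only (12.7% of all genes), 5 with no filter (11.5%; Mdm2 with an edgeR adjusted p of 0.0378), 5 with the offset (11.8%), and 1 to 5 when 1 library was left out: 1 without knockdown 2 (7.25%), 4 without knockdown 1 (11.9%), 5 without control 1 (7.91%) and 5 without control 2 (14.3%). Members at that p numbered 2, Mdm2 and Btg2, with RLE factors (11.6% of all genes), DESeq2 (7.615%) and limma-voom (11.7%). Ei24 then had an unadjusted p of 0.0512 by edgeR with RLE factors, 0.0617 by DESeq2 and 0.0580 by limma-voom. Cyrano was at -2.42 with limma-voom and between -2.79 and -2.08 with 1 library left out.

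The titles number libraries 1 and 2 in each group, but nothing says that a number marks a shared culture or day. Deviations of same-numbered libraries correlated at 0.24 across genes, and in 18 of 35 members the libraries numbered 1 were below those numbered 2 in both groups (30.4% of all genes tested). With the replicate block 955 genes were called, and with the block and the offset 1037. The block adds a term to a fit of few libraries, which leaves less from which to estimate the spread. Members with an unadjusted p under 0.05 then numbered 7 with the block (20.3% of all genes) and 7 with the block and offset (22.4%). Mdm2 and Btg2 were called in both, and Bcl2l11 with the offset.

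The offset also moved the log2 fold changes of Trp53inp1 to 0.04, Plk2 to 0.07, Rrm2b to 0.13, Ddb2 to 0.11, Pmaip1 to 0.0011 and Ccng1 to -0.16. It moved Xiap to -0.37 and Bcl2l11 to 0.53, further from 0. Their unadjusted edgeR p was then 0.0292 for Xiap and 0.0215 for Bcl2l11. Signs turned for values near 0; the cause was not tested. Mcl1 was at -0.0035 with RLE factors, -0.0042 with DESeq2, -0.0014 with limma-voom and -0.0010 with the block; Ccng1 at 0.043 with library size only; Bcl2l1 at 0.023 with library size only, 0.00044 with the offset and 0.0039 with block and offset; Aen at 0.047 with the offset and 0.054 with block and offset; and Pmaip1 at -0.0023 with block and offset. With 1 library left out, a lone library being assumed to vary like the others, the log2 fold change ran from -0.25 to 0.12 for Aen, -0.060 to 0.15 for Bak1, -0.46 to 0.33 for Bbc3, -0.014 to 1.57 for Bcl2, -0.075 to 0.010 for Bcl2l1, -0.35 to 0.25 for Ccng1, -0.14 to 0.25 for Cdkn1a, -0.093 to 0.56 for Ddb2, -0.10 to 0.15 for Gtse1, -0.073 to 0.067 for Mcl1, -0.026 to 0.58 for Phlda3, -0.19 to 0.37 for Plk2, -0.14 to 0.60 for Rrm2b and -0.13 to 0.39 for Trp53inp1.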
